A study of Drosophila melanogaster with 24 samples.

Results

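Mesodermal cells lacking *CHES-1-like* were set against wild-type mesodermal cells over all 17476 genes of the count table. The comparison took 8 of the 24 samples of the series, chosen by genotype alone. The *CHES-1-like* loss-of-function group was 4 biological replicates from embryos carrying *Df(1)CHES-1-like1*, a deletion null for the gene. The wild-type group was 4 biological replicates from embryos without it. Both groups carried the transgenes twi-GAL4 and UAS-2EGFP, in which the promoter of *twist*, an early marker of the whole mesoderm, drives GFP, and GFP-positive cells were sorted by flow cytometry from dissociated embryos aged at 25 °C to stages 11 to 12. The comparison asks which mesodermal genes depend on *CHES-1-like*. A second pair of groups served as a check in another background. In 4 replicates the embryos carried *Df(1)CHES-1-like1* and were homozygous for Df(3R)Exel6157, a deletion that removes *jumu* (double loss-of-function). In 4 others they were homozygous for the *jumu* deficiency alone (*jumu* loss-of-function). All had the same twi-GAL4 and UAS-2EGFP. The remaining 8 samples overexpressed *jumu* or *CHES-1-like* from a UAS transgene under twi-GAL4, in 4 replicates each. A deficiency removes a stretch of chromosome, and *Df(1)CHES-1-like1* was the only lesion of *CHES-1-like* used, so an effect of losing *CHES-1-like* cannot be told apart from an effect of another sequence that the deficiency chromosome or its genetic background carries.

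Forkhead box (Fox) transcription factors bind DNA through a winged-helix domain and control cell fate, cell division and metabolism in many tissues. In Drosophila, *CHES-1-like* and its relative *jumu* act in the cardiac mesoderm, where they help to specify heart progenitors and to carry these progenitors through their divisions, and earlier genetic work tied both to the FGF receptor gene *htl*, the Wnt receptor gene *fz* and the mitotic kinase gene *polo*. At the stages sorted here the mesoderm is being divided into heart, body wall muscle, gut muscle, fat body and blood cell primordia.

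The deficiency was visible in every sample. *CHES-1-like* (FBgn0029504) lies on the X chromosome from 7682338 to 7709385 on the minus strand of the Release 6 assembly. It had 34, 14, 23 and 37 counts in the *CHES-1-like* loss-of-function samples, against 10859, 7848, 2652 and 11428 counts in the wild-type samples. In CPM, which sets each count against the TMM-scaled size of its library, that was 1.01 ± 0.44 in loss-of-function mesoderm and 135 ± 2.4 in wild-type mesoderm (SD, n = 4 each). This left 0.745% of the wild-type value, a log2 fold change of −7.39 ± 0.12 (SE; False Discovery Rate, FDR = 2.4e-24, edgeR quasi-likelihood test). With all 24 samples scaled together, *CHES-1-like* averaged 1.14 CPM in the *CHES-1-like* loss-of-function samples, 1.2 CPM in double loss-of-function, 128 CPM in *jumu* loss-of-function, 138 CPM in *jumu* overexpression, 1532 CPM in *CHES-1-like* overexpression and 156 CPM in wild-type. The samples that carried *Df(1)CHES-1-like1* and those that did not were separated by a wide gap.

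**Figure D1:**
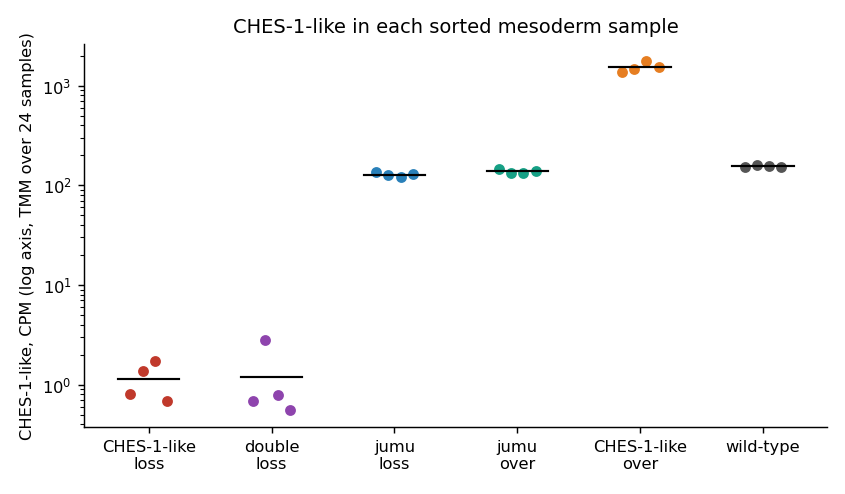
*CHES-1-like* in each of the 24 samples, in CPM on a log axis (TMM scaling over all samples), by genotype; points are samples and bars are means of 4 replicates. The 8 samples that carry *Df(1)CHES-1-like1* lie near 1 CPM, while *jumu* loss-of-function, *jumu* overexpression and wild-type lie above 100 CPM and *CHES-1-like* overexpression averages 1532 CPM.

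The protein-coding neighbours of *CHES-1-like* were still expressed. On the left flank *ct* (7608428 to 7678859), a homeobox gene, averaged 133 ± 8.3 CPM in loss-of-function and 108 ± 5.3 CPM in wild-type mesoderm (log2 fold change 0.31, FDR = 0.00022), a difference short of the fold change threshold and one that changed sign when samples were scaled by their total counts. On the right flank *Hira* (7722119 to 7725917), a histone chaperone gene, averaged 18.8 CPM against 19.2 CPM, *NELF-B* (7725996 to 7728361), a gene for a subunit of the negative elongation factor, 27.4 CPM against 26.7 CPM, and *CG12155* (7728755 to 7731729) 23.3 CPM against 22.2 CPM, with FDR of 0.88, 0.94 and 0.43. 3 short noncoding genes beside or inside *CHES-1-like* had no count in any *CHES-1-like* loss-of-function sample: *CR45665* (7681002 to 7681278; 18, 9, 4 and 7 counts in wild-type), *CR45666* (7679968 to 7680520; 17, 11, 1 and 27 counts) and *CR43287* (7707775 to 7708587; 25, 12, 3 and 20 counts). The farther noncoding gene *CR44357* (7166451 to 7405797) had 12, 2, 0 and 26 counts in loss-of-function and 57, 51, 14 and 52 counts in wild-type samples (log2 fold change −1.42, FDR = 0.011).

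Sequencing depth overlapped between the groups, and the makeup of the libraries did not. The *CHES-1-like* loss-of-function samples held 15197022 to 71242642 counts each, against 15713045 to 72519855 counts in wild-type samples. Genes annotated as ribosomal RNA took 29.0% to 32.6% of the counts in loss-of-function samples, against 20.5% to 22.9% in wild-type samples, and protein-coding genes 30.7% to 38.0% against 44.9% to 48.6% (each p = 0.0286, two-sided exact permutation test, the smallest p that 70 divisions of 8 samples allow). The part of this difference in the results was not tested. It makes the scaling matter: with plain library totals in place of TMM factors the median log2 fold change of all genes moved to −0.56, against −0.01, so changes are given below relative to the bulk of genes, as TMM scaling does. No pair of replicates of any genotype agreed within sampling noise (0 of 36 pairs), so none was treated as a repeat deposit of another, and p-values measure the spread between these samples.

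The loss of *CHES-1-like* was accompanied by many expression differences. Of 12234 genes kept after the 30% with the lowest average level were set aside, 763 were higher and 1124 were lower by the relaxed criteria (FDR < 0.1 and a log2 fold change beyond 0.5 in either direction), which is 6.24% and 9.19% of the genes tested. By the stringent criteria (a log2 fold change beyond 1) 317 were higher and 600 lower, or 2.59% and 4.9%. Without a fold change threshold 2455 genes (20.1%) were higher and 1991 (16.3%) lower at FDR < 0.1. The values of the 2 groups did not overlap in 30.6% of the genes tested. The split between directions depended on the scaling: library totals gave 266 higher and 6269 lower genes by the relaxed criteria, totals without ribosomal RNA genes 357 and 3616, and totals of protein-coding genes 603 and 1416.

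The excess of lower genes came from weakly expressed genes. Among 3695 genes that averaged under 1 CPM, 185 were higher and 578 lower, and their median log2 fold change was −0.33. Among 2323 genes between 1 and 5 CPM the counts were 252 and 404, and among 2624 genes between 5 and 20 CPM they were 148 and 101. From 20 to 100 CPM 111 genes were higher and 34 lower, and above 100 CPM 67 were higher and 7 lower. A requirement of 1 CPM in 4 samples before the fit left 582 higher and 598 lower genes by the relaxed criteria, and 157 and 155 by the stringent ones. Noncoding RNA genes were lower more often than higher (186 against 31 of 925), while 60 of the 102 kept genes annotated as ribosomal RNA were higher and 1 was lower.

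**Figure D2:**
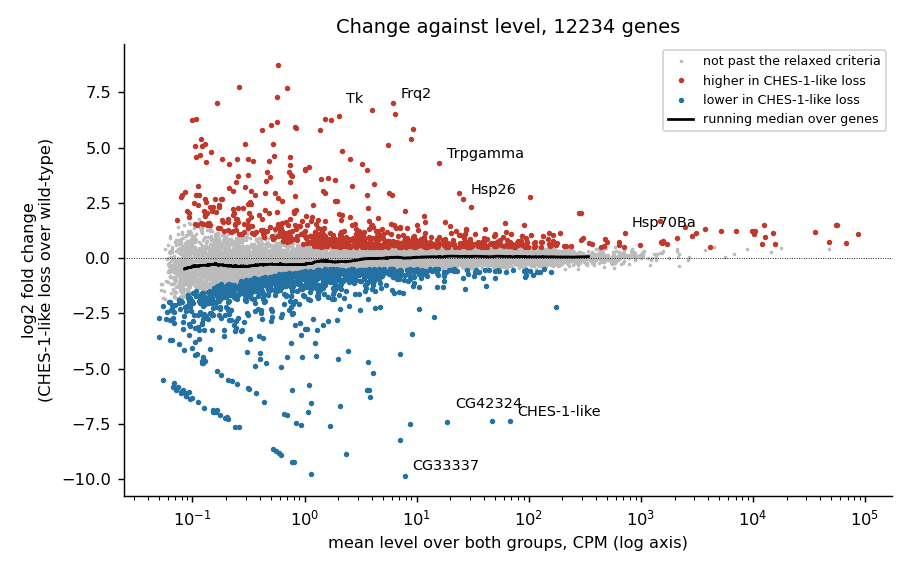
Log2 fold change (*CHES-1-like* loss-of-function over wild-type) of the 12234 genes tested, against the mean level of both groups in CPM on a log axis; red and blue points are the 763 genes higher and the 1124 genes lower by the relaxed criteria, and the black line is a running median. The blue points crowd at low levels, where the running median lies below 0, while above 100 CPM red points prevail.

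By chromosome arm, 4.52% to 6.41% of kept genes were higher and 7.19% to 9.56% lower on 2L, 2R, 3L and 3R. The X chromosome, which carries *CHES-1-like*, had 7.8% higher and 11.8% lower of 1923 genes. Within the X chromosome the calls were not gathered at the locus: 3 of 77 genes within 0.5 Mb were higher and 9 lower, between 2 and 5 Mb away 49 of 436 were higher and 70 lower, and beyond 5 Mb 74 of 1101 were higher and 121 lower. On the Y chromosome 0 of 43 kept genes were higher and 28 lower, a count taken up below.

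The genes that earlier work tied to both Fox factors changed little. Earlier work reported that the 2 Fox genes activate *htl* and *fz* redundantly, so the loss of *CHES-1-like* alone does not test that link. The FGF receptor gene *htl* had 52.6, 60.8, 56.9 and 57.4 CPM in *CHES-1-like* loss-of-function samples, against 66.7, 64.4, 71.8 and 63.8 CPM in wild-type samples (log2 fold change −0.23 ± 0.06, FDR = 0.0042). The Wnt receptor gene *fz* had 106, 110, 111 and 108 CPM against 119, 119, 124 and 122 CPM (−0.16 ± 0.05, FDR = 0.025). The groups did not overlap for either gene, and both differences were under the relaxed fold change. The kinase gene *polo* had 183, 195, 181 and 188 CPM against 165, 166, 175 and 165 CPM (0.16 ± 0.05, FDR = 0.031), a sign that turned with library totals. *jumu* itself averaged 89.3 ± 3.1 CPM against 106 ± 3 CPM (−0.24 ± 0.05, FDR = 0.00096). Among 17 kept Fox genes, *foxo*, a gene of insulin signalling and stress responses, was higher (19.4 against 12.3 CPM, log2 fold change 0.65, FDR = 4.2e-07), and *fd59A*, with overlapping groups, was lower (0.803 against 1.52 CPM, −0.93, FDR = 0.013) beside *CHES-1-like* itself.

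Signalling genes around these receptors mostly differed by little, with the feedback inhibitor *kek1* as the clear exception. By the relaxed criteria 6.24% of all genes were higher and 9.19% lower, and the counts in these lists were mostly near or below those shares. In the FGF and EGF receptor pathway 0 of 25 members were higher and 2 lower, and the median log2 fold change was 0.00 against −0.01 for all genes. The strongest was *kek1*, a transmembrane feedback inhibitor of the EGF receptor, with 0.717, 0.346, 0.661 and 0.693 CPM in *CHES-1-like* loss-of-function samples, against 13.5, 14.1, 13.4 and 13.3 CPM in wild-type samples (log2 fold change −4.35 ± 0.13, FDR = 5.6e-19). Every loss-of-function sample lay far below every wild-type sample. The FGF ligand gene *ths* averaged 7.1 ± 1.2 CPM against 10.4 ± 0.5 CPM (−0.51, FDR = 0.00035), at the edge of the threshold. The secreted EGF receptor antagonist *aos* had 15.5 against 20.3 CPM (−0.40, FDR = 5.7e-05). In the Wnt pathway 1 of 25 members was higher and 2 lower (median 0.01): the ligand gene *wntD* averaged 1.3 CPM against 0.487 CPM (1.47, FDR = 0.0009), the receptor gene *fz3* 7.73 against 11.2 CPM (−0.54, FDR = 0.0001), and *por*, needed to lipidate Wnt ligands, 4.12 against 6.04 CPM (−0.52, FDR = 0.0028). In the Dpp pathway 0 of 16 were higher and 2 lower (median −0.12), among them the ligand gene *scw* with 0.419 against 0.83 CPM (−0.89, FDR = 0.039). None of 25 Notch pathway genes passed the relaxed criteria (median 0.11). At FDR < 0.1 alone 8 were higher and 1 lower, against 20.1% and 16.3% of all genes. The nearest to the threshold was *E(spl)m6-BFM* at 8.48 against 6.13 CPM (0.49, FDR = 0.002).

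The sorted cells of both groups carried mesodermal markers, at levels that differed by small amounts, with *Mef2* and *htl* lower in loss-of-function. The mesodermal regulator *twi* had 20.8 to 23.9 CPM in loss-of-function and 19.5 to 21.0 CPM in wild-type samples (log2 fold change 0.09, FDR = 0.36), and *Mef2*, the myogenic regulator, 407 to 491 CPM against 486 to 515 CPM (−0.18, FDR = 0.029). Since these are bulk samples, fewer cells of a type and less RNA per cell of that type cannot be told apart in any of the lists that follow. Among 16 cardiac regulators 0 were higher and 0 lower by the relaxed criteria, against the 15.4% of all genes that passed in either direction. The heart identity gene *tin* had 10.5, 10.5, 12.0 and 11.2 CPM against 10.03, 11.9, 10.8 and 11.9 CPM (−0.02, FDR = 0.98). The largest shifts in the list were in *svp*, which marks a subset of heart cells, with 40.9 ± 2.5 CPM against 54.9 ± 2 CPM (−0.42, FDR = 3.8e-06), and in *pnr*, a GATA factor of the early heart, with 74.7 ± 1.7 CPM against 53.8 ± 1.5 CPM (0.48, FDR = 8.8e-08). The groups did not overlap for *svp* or *pnr*, and the sign for *pnr* turned with library totals. The homeobox gene *lbe* had 8.66 against 11.1 CPM (−0.31, FDR = 0.013), and *Him*, an inhibitor of *Mef2* activity, 40.0 against 48.6 CPM (−0.29, FDR = 0.00042).

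Other mesodermal programmes differed by small amounts. None of 14 pan-mesodermal and myogenic regulators, 17 founder cell identity factors or 9 visceral mesoderm genes passed the relaxed criteria, and the list medians were −0.04, −0.08 and 0.12. At FDR < 0.1 alone 0, 1 and 3 of these were higher and 6, 2 and 0 lower, against 20.1% and 16.3% of all genes. The pan-mesodermal genes summed to 1811 to 1994 CPM in loss-of-function and 2042 to 2138 CPM in wild-type samples. Visceral mesoderm genes summed to 1210 to 1346 CPM against 1164 to 1183 CPM. The lowest of the pan-mesodermal list was *mbl*, a splicing factor of muscle, at 146 against 184 CPM (−0.34, FDR = 0.0009). *lmd*, a regulator of fusion-competent myoblasts, had 388 against 454 CPM (−0.23, FDR = 0.0028). Of 19 myoblast fusion genes 1 was higher and 0 lower by the relaxed criteria, against 6.24% and 9.19% of all genes. It was the small GTPase gene *Arf51F*, at the edge of the threshold with 86.6 against 61.1 CPM (0.50, FDR = 7.4e-07). *sns*, the adhesion receptor of fusion-competent myoblasts, had 489 ± 16 CPM against 664 ± 13 CPM (−0.44, FDR = 8.9e-07). At FDR < 0.1 alone 7 of the fusion genes were higher and 5 lower, and their sum was 2449 to 2533 CPM against 2605 to 2633 CPM. Of 24 myofibril genes 2 were higher and 1 lower by the same criteria, near or below those shares, with a median of −0.11. At FDR < 0.1 alone 4 were higher and 8 lower, and the list sum was 2441 to 2652 CPM against 2838 to 2969 CPM. The actin gene *Act79B* was higher (21.8 against 14.3 CPM, 0.61, FDR = 6.9e-07), as was the troponin C gene *TpnC73F* (22.4 against 15.6 CPM, 0.51, FDR = 1.9e-06), and the paramyosin gene *Prm* was lower (1.38 against 2.88 CPM, −1.08, FDR = 0.00026). The muscle myosin gene *Mhc* had 44.2 against 59.9 CPM (−0.45, FDR = 1.9e-06) and the titin-related gene *sls* 1090 against 1354 CPM (−0.32, FDR = 0.00052).

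**Figure D3:**
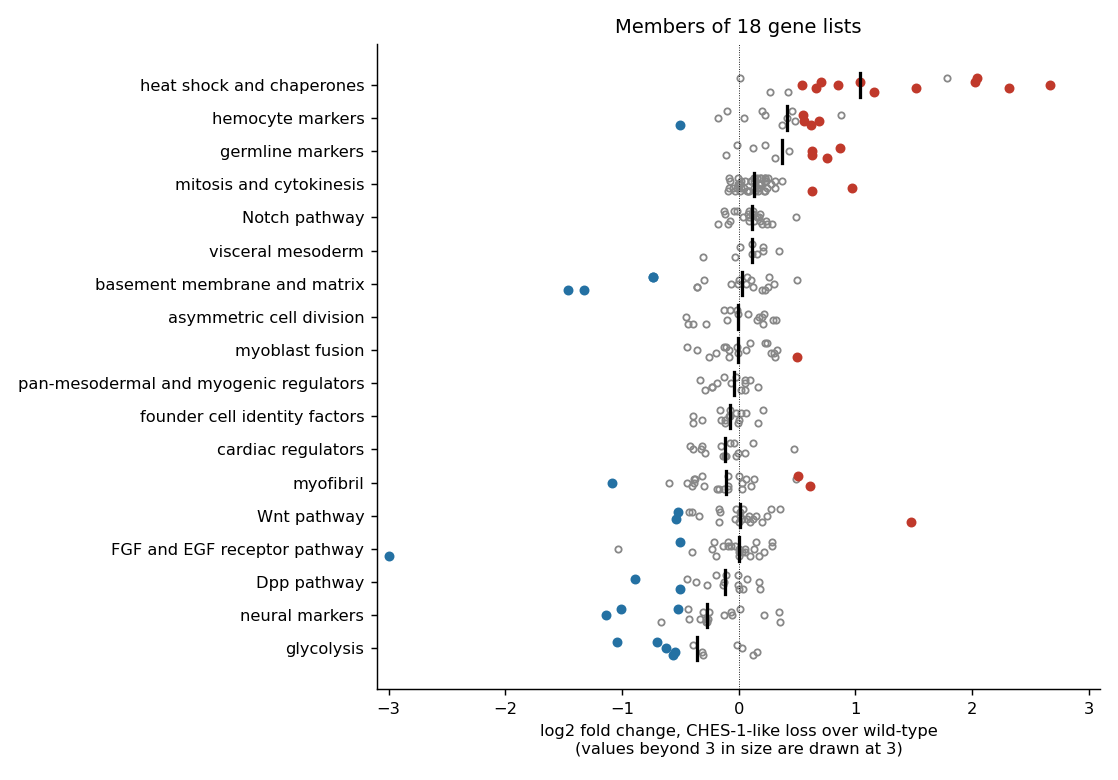
Log2 fold change (*CHES-1-like* loss-of-function over wild-type) of every kept member of 18 gene lists; each circle is a gene, filled red or blue where it was higher or lower by the relaxed criteria, and the black bar is the median of the list (TMM scaling). The heat shock list stands to the right with a median of 1.04, hemocyte markers at 0.42, and neural markers and glycolysis to the left at −0.28 and −0.35 (*kek1* is drawn at the edge, at −3), while the cardiac and founder lists hold no filled circle.

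Blood cell genes were higher relative to the bulk of genes, but not with library totals. Hemocytes arise from the head mesoderm, and of 15 kept hemocyte markers 4 were higher and 1 lower by the relaxed criteria, against 6.24% and 9.19% of all genes, and their median log2 fold change was 0.42 against −0.01 for all genes. The scavenger receptor gene *crq* had 170, 188, 190 and 185 CPM in *CHES-1-like* loss-of-function samples, against 124, 120, 131 and 125 CPM in wild-type samples (0.55 ± 0.05, FDR = 1.8e-08). *Pvr*, the PDGF/VEGF receptor that hemocytes use to survive and migrate, had 249, 252, 244 and 247 CPM against 167, 168, 170 and 167 CPM (0.56 ± 0.05, FDR = 3.4e-09). Higher values without overlap were likewise seen for *Sr-CI*, another scavenger receptor gene (101 against 65.7 CPM, 0.62, FDR = 6.6e-09), and *sn*, the fascin gene (424 against 262 CPM, 0.69, FDR = 1.4e-09). The fate genes fell short of the threshold: *srp*, the GATA factor of blood cells, averaged 258 against 194 CPM (0.42, FDR = 1.5e-06), *gcm* 69.5 against 49.98 CPM (0.48, FDR = 9e-07) and *Pxn*, the peroxidasin gene, 434 against 379 CPM (0.20, FDR = 0.015). Crystal cell genes, which mark the other embryonic blood lineage, did not follow. *lz* averaged 2.13 against 3.07 CPM (−0.50, FDR = 0.049, overlapping groups) and the prophenoloxidase gene *PPO2* 191 against 217 CPM (−0.18, FDR = 0.019). The summed level of the list was 2138 to 2188 CPM in loss-of-function and 1696 to 1728 CPM in wild-type samples. With library totals *crq*, *srp*, *gcm* and *Pxn* changed sign and 0 members were higher and 4 lower, while the list median stayed 0.42 above that of all genes. Between double and *jumu* loss-of-function mesoderm 0 of the 15 were higher and 3 lower (median −0.22), against 3.74% and 5.67% of all genes.

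Among markers of the other cell types that a sort could carry, neural and epidermal ones were lower in sum and germline ones higher. Each of the 28 marker genes fixed for mesoderm, blood, neural, epidermal, endodermal and germline cells had counts in every library. Of 20 neural markers 0 were higher and 3 lower by the relaxed criteria, against 6.24% and 9.19% of all genes, with a median of −0.28. The 3 were the synaptic genes *brp* (0.667 against 1.53 CPM, −1.14, FDR = 0.0021) and *Syt1* (0.368 against 0.918 CPM, −1.01, FDR = 0.025) and the glial gene *repo* (2.96 against 4.44 CPM, −0.52, FDR = 0.009). All 3 were weakly expressed, and of all genes under 1 CPM 15.6% were lower, and of those between 1 and 5 CPM 17.4%. The pan-neuronal gene *elav* had 135 to 165 CPM against 174 to 197 CPM (−0.31, FDR = 0.00072), *scrt* 34.1 against 43.3 CPM (−0.33, FDR = 0.00046) and *pros* 40.6 against 49.4 CPM (−0.28, FDR = 0.00028). At FDR < 0.1 alone 2 of the 20 neural markers were higher and 10 lower, where 20.1% of all genes were higher and 16.3% lower. The 2 that went the other way were *SoxN* (0.35, FDR = 3.4e-05) and *moody* (0.34, FDR = 2.9e-05). The summed neural level was 800 to 880 CPM in loss-of-function and 918 to 968 CPM in wild-type samples. The summed epidermal and tracheal level was 279 to 311 CPM against 320 to 333 CPM, and 1 of its 12 genes was lower, *ect* at 0.664 against 1.71 CPM (−1.14, FDR = 0.0029). At FDR < 0.1 alone 3 of the 12 were lower and 1 higher, *trh* (0.34, FDR = 0.0065). None of 4 kept midgut endoderm markers passed (18.8 to 27.4 CPM summed against 26.0 to 29.8 CPM). The summed germline level was 259 to 264 CPM against 247 to 253 CPM. The part of other cell types in the results was not tested.

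Heat shock genes rose together. Heat shock proteins are chaperones that refold or hold damaged proteins, and their genes are switched on by the factor *Hsf* under stress. Of 15 kept members 11 were higher and 0 lower by the relaxed criteria, which 6.24% and 9.19% of all genes passed, 7 of them by the stringent ones (2.59% of all genes higher), with a median of 1.04. The small heat shock protein gene *Hsp26* had 41.8, 50.5, 42.5 and 43.9 CPM in *CHES-1-like* loss-of-function samples, against 6.2, 7.96, 7.78 and 6.46 CPM in wild-type samples (log2 fold change 2.67 ± 0.08, FDR = 9.9e-19). Its neighbour *Hsp23* had 47.2, 54, 53.8 and 50.5 CPM against 9.95, 11.2, 10.2 and 9.83 CPM (2.31 ± 0.07, FDR = 2.1e-19). The inducible chaperone gene *Hsp70Ab* had 477, 476, 458 and 464 CPM against 111, 113, 120 and 112 CPM (2.04 ± 0.05, FDR = 5.5e-20). No sample of one group reached the range of the other for these genes. *Hsp70Aa* (2.02), *Hsp68* (1.52), *Hsp70Ba* (1.16) and the co-chaperone gene *DnaJ-1* (1.04) were also past the stringent log2 fold change, and *stv*, a partner of Hsp70 chaperones (0.85), *Hsp27* (0.70), *Hsp70Bb* (0.66) and *Hsp83* (0.54) past the relaxed one. The Hsp70 copies are nearly identical in sequence, so reads may be split among them. Summed over the list, levels were 4891 to 5048 CPM against 3062 to 3248 CPM. With library totals the count was 6 higher and 1 lower. The median stayed 1.05 above that of all genes, and *Hsp83* changed sign.

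Most of this rise was not seen when *CHES-1-like* was lost from jumu-null mesoderm. In double against *jumu* loss-of-function samples, where 3.74% of all genes were higher and 5.67% lower, 3 of the 15 were higher and 1 lower, with a median of 0.04. *Hsp26* averaged 50.9 CPM in *CHES-1-like* loss-of-function, 12.2 CPM in double loss-of-function, 12.9 CPM in *jumu* loss-of-function, 4.08 CPM in *jumu* overexpression, 7.28 CPM in *CHES-1-like* overexpression and 8.21 CPM in wild-type, all 24 samples scaled together. The difference between the effects in the 2 backgrounds, tested as an interaction over 16 samples, was −2.74 ± 0.14 (SE) for *Hsp26* (FDR = 5e-11) and −2.003 ± 0.09 for *Hsp70Ab* (FDR = 6.6e-12, edgeR). In 3 other stress-linked groups few genes passed the relaxed criteria, by which 6.24% of all genes were higher and 9.19% lower. Of 15 apoptosis genes 1 was higher, *grim*, an activator of cell death (4.32 against 2.63 CPM, 0.72, FDR = 0.00055). At FDR < 0.1 alone 6 apoptosis genes were higher and 1 lower, against 20.1% and 16.3% of all genes. Among the 6, *rpr* (0.49, FDR = 1.8e-05), *skl* (0.47, FDR = 2.6e-05) and *Dark* (0.40, FDR = 4.5e-06) were under the fold change threshold. Of 11 kept immune genes 0 were higher and 1 lower, and of 86 ribosomal protein genes 0 passed in either direction.

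**Figure D4:**
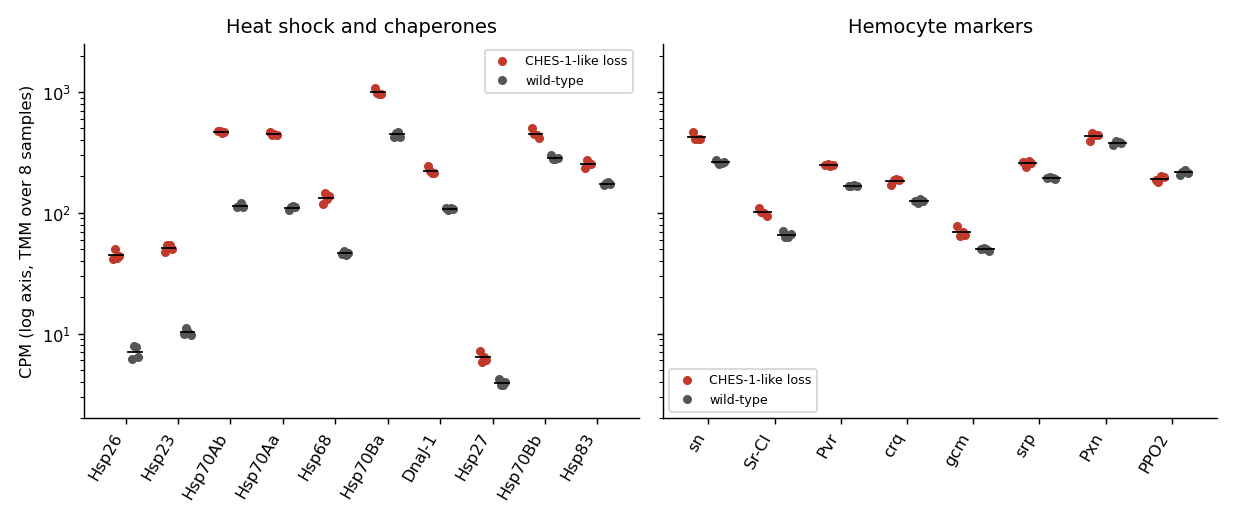
Levels in CPM (log axis, TMM scaling over the 8 samples) of 10 heat shock and chaperone genes and 8 hemocyte markers, with *CHES-1-like* loss-of-function samples in red left of wild-type samples in gray; points are samples and bars are means. *Hsp26* lies between 41.8 and 50.5 CPM in loss-of-function and between 6.2 and 7.96 CPM in wild-type samples, and *Pvr* between 244 and 252 CPM against 167 to 170 CPM.

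Relative to the bulk of genes, cell division genes shifted by small amounts in 1 direction. Of 52 mitosis and cytokinesis genes 2 were higher and 0 lower by the relaxed criteria, below the 6.24% and 9.19% of all genes, yet 26 were higher and 0 lower at FDR < 0.1 alone, where 20.1% of all genes were higher and 16.3% lower. The list median was 0.13, and 46 of the 52 lay above the all-gene median. The sign of that median turned with library totals, to −0.41, while 43 members were still above the all-gene median. None of the 52 averaged under 1 CPM, where 3695 of the kept genes lay with a median of −0.33. With TMM scaling the medians of genes in the level classes from 5 CPM upward were 0.04 to 0.08. The list was not compared with genes of like level, so the part of expression level in its shift was not tested. The Cdc25 phosphatase gene *twe* had 13.7, 12.4, 10 and 13 CPM in loss-of-function samples, against 6.75, 5.65, 6.26 and 6.68 CPM in wild-type samples (0.97 ± 0.10, FDR = 2.4e-08). *pim*, the securin gene, averaged 21.3 ± 3.7 CPM against 14 ± 1.4 CPM (0.63, FDR = 1.6e-05). Of 32 DNA replication genes 1 was higher, *Mcm10* (17.5 against 12.1 CPM, 0.54, FDR = 5.8e-06), and 0 were lower. Of 17 genes of asymmetric cell division, the process by which a progenitor gives 2 unlike daughters, 0 passed the relaxed criteria. At FDR < 0.1 alone 7 were higher and 4 lower, the list median was 0.00, and the log2 fold changes ran from −0.45 to 0.32. The lowest values belonged to *insc* with 28.1 ± 0.91 CPM against 38.3 ± 0.61 CPM (−0.45, FDR = 8.3e-07), *pon* with 79.8 ± 4.1 CPM against 108 ± 4.7 CPM (−0.43, FDR = 1.2e-06) and *baz* with 403 ± 13 CPM against 529 ± 18 CPM (−0.39, FDR = 5.6e-06), each with no overlap between groups.

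Several glycolysis genes were lower. Of 12 kept members 0 were higher and 5 lower by the relaxed criteria, against 6.24% and 9.19% of all genes, with a median of −0.35: the hexokinase gene *Hex-A* (7.94 against 13 CPM, −0.70, FDR = 1.7e-06), the lactate dehydrogenase gene *ImpL3* (17.5 against 25.7 CPM, −0.56, FDR = 5e-07), the phosphofructokinase gene *Pfk* (6.83 against 9.71 CPM, −0.54, FDR = 0.00041), *Gapdh1* (2.11 against 3.2 CPM, −0.63, FDR = 0.0078) and the triose phosphate isomerase gene *Tpi* (1.77 against 3.52 CPM, −1.04, FDR = 0.00012). The list sum was 157 to 179 CPM in loss-of-function and 195 to 207 CPM in wild-type samples, with no overlap. Between double and *jumu* loss-of-function mesoderm 1 of the 12 was higher and 0 lower, against 3.74% and 5.67% of all genes. Basement membrane and matrix genes did not shift together. Of 20 kept members 0 were higher and 4 lower (6.24% and 9.19% of all genes), 6 were higher and 7 lower at FDR < 0.1 alone, and the median was 0.03. Their summed level was 10824 to 11580 CPM in loss-of-function and 9496 to 9808 CPM in wild-type samples. *trol*, the perlecan gene, had 21.5, 23.1, 19.8 and 21.5 CPM against 35.6, 36, 34.8 and 35.9 CPM (−0.73 ± 0.06, FDR = 5.6e-10), and *prc*, the gene for pericardin, a collagen-like protein around the heart, 1.26 ± 0.14 CPM against 3.45 ± 0.53 CPM (−1.47, FDR = 6.8e-07). The collagen gene *Mp* (0.105 against 0.294 CPM, −1.33, FDR = 0.074) and the matrix protease gene *Mmp1* (0.429 against 0.749 CPM, −0.74, FDR = 0.088) were lower at levels under 1 CPM. The abundant papilin gene *Ppn* went the other way, with 5222 against 3702 CPM (0.50, FDR = 9.7e-07), just under the threshold and with a sign that turned with library totals. Of 13 integrin adhesion genes 1 was lower, the integrin subunit gene *Itgbn* (3.5 against 5.81 CPM, −0.68, FDR = 0.00043).

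In the ecdysone list 2 of 17 genes were higher and 3 lower, against 6.24% and 9.19% of all genes. *Eip93F*, which encodes a transcription factor of the ecdysone response, had 2.56, 3.2, 2.05 and 2.37 CPM in loss-of-function samples, against 0.196, 0.229, 0.356 and 0.163 CPM in wild-type samples (log2 fold change 3.56 ± 0.27, FDR = 2.2e-10). The ecdysone-inducible genes *ImpE2* (1.3 against 2.87 CPM, −0.999, FDR = 0.00032) and *ImpE1* (0.989 against 1.62 CPM, −0.72, FDR = 0.014) were lower. Of 10 germline genes 4 were higher and 0 lower, against 6.24% and 9.19% of all genes, with a median of 0.37. The strongest was *AGO3*, a Piwi-class protein of transposon silencing (14.9 ± 2 CPM against 8.09 ± 0.97 CPM, 0.87, FDR = 1.4e-07), followed by *piwi* (2.45 against 1.52 CPM, 0.76, FDR = 0.0067, overlapping groups), *osk* (2.79 against 1.73 CPM, 0.63, FDR = 0.014) and *nos* (1.89 against 1.22 CPM, 0.63, FDR = 0.043, overlapping groups). With library totals 0 of the 10 were higher and 2 lower. Of 29 kept genes of the mitochondrial genome 6 were higher and 0 lower (1 and 0 with DESeq2, 2 and 4 with library totals), and none of 12 sex determination and dosage compensation genes or 10 Hox genes and cofactors passed. The noncoding roX RNAs of dosage compensation, *roX1* and *roX2*, averaged 717 against 854 CPM (−0.25, FDR = 0.0016) and 51.9 against 61.8 CPM (−0.26, FDR = 0.033).

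The largest single changes were close to gains or losses of whole transcripts, and most lay outside the fixed lists. 135 genes passed the stringent criteria without overlap and averaged at least 5 CPM in the higher group, 90 of them higher and 45 lower in loss-of-function mesoderm. *Frq2*, a neuronal calcium sensor gene, had 14.8, 10, 13.1 and 11.2 CPM in *CHES-1-like* loss-of-function samples, against 0.0614, 0.0352, 0.0509 and 0.175 CPM in wild-type samples (log2 fold change 7.01 ± 0.23, FDR = 3.4e-18). *Tk*, the tachykinin neuropeptide gene, had 7.54, 7.69, 7.99 and 8.28 CPM against 0.0614, 0.0704, 0.102 and 0.0815 CPM (6.69 ± 0.20, FDR = 9.4e-19). *Cngl*, a gene of the cyclic nucleotide-gated channel family, had 14.7, 10.5, 13 and 12.3 CPM against 0.111, 0.123, 0.254 and 0.14 CPM (6.53 ± 0.18, FDR = 1.1e-19). Wild-type samples held between 1 and 15 counts of these 3 genes, so the fold changes rest on few wild-type reads.

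The channel gene *Trpgamma* had the highest level among the 10 largest rises, with 31.6, 31, 29.8 and 29.6 CPM in loss-of-function samples, against 1.79, 1.39, 1.32 and 1.48 CPM in wild-type samples (4.31 ± 0.09, FDR = 4.3e-22). *Mctp*, a membrane protein gene with C2 domains, had 18 ± 1.6 CPM against 0.365 ± 0.17 CPM (5.83, FDR = 3.9e-19), and *Aplip1*, which encodes a scaffold that links kinesin to JNK signalling, 10.9 ± 1.6 CPM against 0.302 ± 0.075 CPM (5.12, FDR = 9.2e-18). *CG11697* (5.40), *CG15894* (4.26), *CG43373* (3.99) and *CG14853* (3.35) complete the highest 10 by log2 fold change. Among genes with a full name, the allatostatin receptor gene *AstA-R1* (10.1 against 1.25 CPM, 2.94, FDR = 3.4e-14) and the active zone gene *Fife* (6.37 against 0.861 CPM, 2.84, FDR = 7e-13) came next, ahead of *Hsp26* and *Hsp23*.

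Among the 10 largest falls *CG42324* had the highest wild-type level after *CHES-1-like*. It had 0.799, 0.951, 0.396 and 0.338 CPM in *CHES-1-like* loss-of-function samples, against 93.8, 91.4, 94.3 and 92.6 CPM in wild-type samples (log2 fold change −7.36 ± 0.13, FDR = 6.1e-24). *axo*, a gene for a membrane protein related to neurexins, had 0.164, 0.346, 0 and 0.29 CPM against 37, 37, 36 and 38.9 CPM (−7.41 ± 0.15, FDR = 2.6e-22). *CG33337* had 0, 1, 0 and 1 counts against 1277, 921, 316 and 1298 counts, and was at least 111-fold lower in loss-of-function than in wild-type mesoderm, with 3 counts taken as the floor of each loss-of-function library. *CG32547* (−8.25), the noncoding *CR32658* (−7.49) and *CR32657* (−5.98), *rk*, the receptor gene of the hormone bursicon (−6.28), *CG7509* (−5.99) and the cytochrome P450 gene *Cyp4p2* (−5.20) make up the rest of the lowest 10. Named genes further down were *kek1*, the synaptotagmin gene *Syt4* (3.44 ± 1.4 CPM against 25.2 ± 0.37 CPM, −2.68, FDR = 1.1e-14), the glucuronosyltransferase gene *Ugt86Da* (0.989 against 5.26 CPM, −2.34, FDR = 1.3e-10), the adenylyl cyclase gene *Ac76E* (3.8 against 11.2 CPM, −1.57, FDR = 2.4e-11), the aminopeptidase gene *sda* (3.26 against 8.9 CPM, −1.44, FDR = 1.6e-09) and *RhoGAP100F*, a presynaptic GTPase regulator (14.9 against 39.5 CPM, −1.39, FDR = 2e-13). A pair of strongly expressed genes, chosen after their values were seen, changed by a smaller fold and by more reads. *CG14608* had 66.4, 52.8, 64.5 and 62.0 CPM in *CHES-1-like* loss-of-function samples, against 279, 299, 282 and 290 CPM in wild-type samples (−2.22 ± 0.06, FDR = 2.1e-19), and averaged 0.358 CPM in double loss-of-function and 0.245 CPM in *jumu* loss-of-function. *CG18754* had 168, 194, 175 and 178 CPM against 24.9, 26.9, 29.4 and 24.6 CPM (2.76 ± 0.06, FDR = 4.3e-21), and averaged 1.99 CPM in double loss-of-function and 2.37 CPM in *jumu* loss-of-function. The annotated exons of *Frq2*, *CG18754*, *CG43373*, *CG33337*, *CG32547*, *axo*, *rk* and *Fife* overlap those of another gene, and since it is not stated whether the counting used the strand, their counts may hold reads of that gene.

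**Figure D5:**
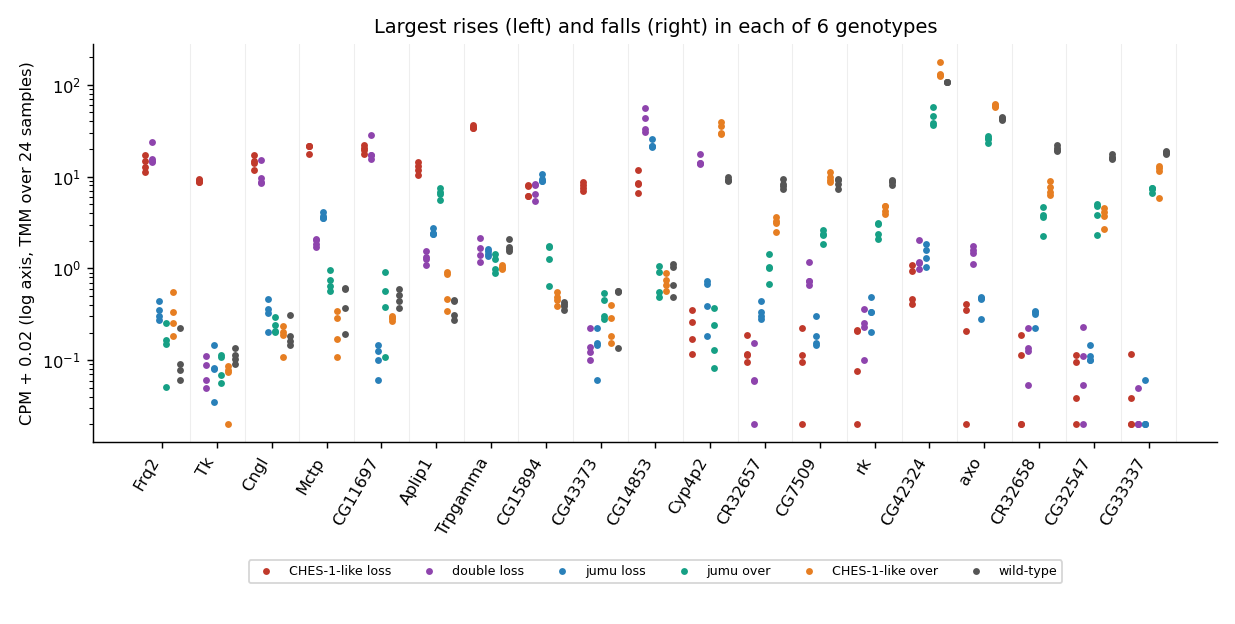
Levels of the 10 largest rises and, without *CHES-1-like*, the 9 largest falls in each of the 24 samples, as CPM + 0.02 on a log axis (TMM scaling over all samples), colored by genotype. *Tk*, *Trpgamma* and *CG43373* are high in *CHES-1-like* loss-of-function alone, *Frq2*, *Cngl* and *CG11697* also in double loss-of-function, and the 9 falls are low in *jumu* loss-of-function as well.

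Set beside the other genotypes, these genes fell into different patterns. Of the 14 named rises with the largest changes, 8 were higher in every *CHES-1-like* loss-of-function sample than in any sample of the other 4 mutant or overexpression genotypes as well as wild-type, among them *Tk*, *Mctp*, *Trpgamma*, *Aplip1*, *Hsp26* and *Hsp23*. *Tk* averaged 8.98 CPM in the samples lacking *CHES-1-like* and between 0.0448 and 0.091 CPM in the other 5 genotypes. *CG14853* and *CG15894* were also high in the *jumu* deficiency: *CG14853* averaged 8.75 CPM in *CHES-1-like* loss-of-function, 40.6 CPM in double loss-of-function, 22.4 CPM in *jumu* loss-of-function and 0.808 CPM in wild-type. For 8 of the 16 named falls it was wild-type that lay above all other samples. *CG42324* averaged 0.708 CPM in *CHES-1-like* loss-of-function, 1.32 CPM in double loss-of-function, 1.42 CPM in *jumu* loss-of-function, 44.3 CPM in *jumu* overexpression, 140 CPM in *CHES-1-like* overexpression and 108 CPM in wild-type. *CG33337* had 0.029 CPM in *CHES-1-like* loss-of-function, 0.00748 CPM in double loss-of-function, 0.0102 CPM in *jumu* loss-of-function, 7.24 CPM in *jumu* overexpression, 10.7 CPM in *CHES-1-like* overexpression and 18.2 CPM in wild-type. *kek1* had 0.69 CPM in the samples lacking *CHES-1-like*, 1.27 to 2.45 CPM in double loss-of-function, *jumu* loss-of-function and *jumu* overexpression, 43.4 CPM in *CHES-1-like* overexpression and 15.7 CPM in wild-type. Whether such on-and-off differences go with the Fox genes or with the chromosomes of each strain cannot be told apart with 1 strain per genotype.

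Double against *jumu* loss-of-function mesoderm tests the same deficiency with none of the samples used above. There 458 genes (3.74%) were higher and 694 (5.67%) lower by the relaxed criteria. 87 genes were higher in both comparisons, which is 11.4% of the 763 and 19.0% of the 458, and 178 were lower in both, 15.8% of the 1124 and 25.6% of the 694. In the opposite direction were 69 of the 763 and 48 of the 1124. Without replicate 2 of double loss-of-function, which stood apart from the other 3, the comparison called 664 higher and 947 lower genes, of which 94 and 222 were shared. Without replicate 3 of *jumu* loss-of-function it called 295 and 455, of which 65 and 116 were shared. By the stringent criteria 1.78% of all genes were higher and 2.89% lower in the jumu-null background. With these criteria 47 of 213 X-linked genes recurred in the same direction (22.1%), against 48 of 642 autosomal genes (7.48%). The share was 21.4% on the Y chromosome (6 of 28). Among the autosomes it was 11.2% on 3R (25 of 224) and 4.52% to 6.84% on 2L, 2R and 3L.

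The recurring changes included *CHES-1-like* itself (−6.93 in the jumu-null background) and a set of X-linked genes. *Frq2* (5.65), *Cngl* (5.15) and *CG11697* (7.81) rose in both backgrounds. *CG14205* averaged 10.6 CPM in mesoderm lacking *CHES-1-like* and 1.38 CPM in wild-type (2.85), with a log2 fold change of 7.67 in the jumu-null background. The jumu-null values of *CG11697* and *CG14205* rest on 2 to 7 and 0 to 5 counts in *jumu* loss-of-function. *Kmn1*, a kinetochore gene that lies beside *CG11697* on the X chromosome, had 14.9 against 5.24 CPM (1.501), with 2.18 in the jumu-null background. *Idgf2*, a chitinase-related growth factor gene on arm 2L, had 10.2 against 3.98 CPM (1.35, and 1.24 in the jumu-null background), and *CG14229* 2.06 against 6.37 CPM (−1.49 and −1.45). *CG14205*, *Kmn1*, *Idgf2* and *CG14229* were chosen after their values were seen, and the exons of *Kmn1* overlap those of a gene on the opposite strand, whose reads its counts may hold. Other large rises did not recur: between double and *jumu* loss-of-function mesoderm the log2 fold change was 0.15 for *Tk*, 0.12 for *Trpgamma* and −0.03 for *CG43373*, and *Mctp* (−0.93, FDR = 0.0021), *Aplip1* (−0.95, FDR = 0.0072) and *AstA-R1* (−0.88, FDR = 0.00028) were lower there. For the largest falls this comparison says little, since their levels were already low in *jumu* loss-of-function, at 1.42 CPM for *CG42324* and 0.0102 CPM for *CG33337*, where a further fall could hardly be seen. Among them *Cyp4p2* (5.04, FDR = 1.1e-06), *CG7509* (2.08, FDR = 0.0049) and *axo* (1.86, FDR = 0.0014) were higher in double than in *jumu* loss-of-function.

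*CHES-1-like* and *jumu* loss-of-function mesoderm also differed widely from each other. In a direct comparison of these 2 groups 1171 genes (9.57%) were higher and 1601 (13.1%) lower in *CHES-1-like* loss-of-function by the relaxed criteria. The interaction over the 16 loss-of-function and wild-type samples passed FDR < 0.1 for 2162 of 12234 genes (17.7%), and for 3821 without replicate 2 of double loss-of-function.

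The Y-linked falls came mostly from 1 family. *Su(Ste)* genes are repeated loci whose RNAs silence the Stellate genes in the male germline, and this family was chosen after its values were seen. Of the 28 Y-linked genes that were lower 21 belonged to it, and of the 18 other kept Y-linked genes 7 were lower. Over all 32 kept *Su(Ste)* genes, of which the annotation used places 25 on the Y chromosome, 28 were lower and 0 higher, and the median log2 fold change was −2.21. Summed over the family the level was 10.8 ± 0.55 CPM in mesoderm lacking *CHES-1-like* (9.98 to 11.1) and 52.2 ± 3.4 CPM in wild-type mesoderm (48.7 to 56.3; SD, n = 4 each), with no overlap. In double against *jumu* loss-of-function mesoderm 14 of them were lower and 0 higher. The copies are close to identical, so how reads divide among single members is uncertain, and their sum is the firmer value.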

How the data were processed

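Total RNA from the sorted cells was made into strand-specific, ribosomal RNA-depleted libraries (TruSeq stranded total RNA), sequenced on a HiSeq 2500 and aligned by the authors with TopHat2 to the FlyBase release 6 annotation. HTSeq and SAMtools are named in the submitters' processing notes, without versions, and the strand setting of the counting is not given in the sources used here. The deposited values are whole-number counts of reads per gene, not normalized, for 17476 genes in 24 samples, with 15197022 to 72519855 counts in each of the 8 samples compared.

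Genes with at least 1 count were fitted with edgeR 4.0.16 in R 4.3.3 (TMM factors, quasi-likelihood F test) on the 8 samples of the comparison. The FDR is the Benjamini-Hochberg adjusted p over all 17476 genes. The lowest 30% by mean log2 CPM were then set aside, which left 12234 genes for calls, and standard errors were derived from the F statistics. The double against *jumu* loss-of-function comparison was fitted alone, and the interaction on 16 samples. Levels in CPM are means ± SD of 4 samples. DESeq2 1.42.0, other scalings, other filters, a replicate block and the removal of each sample were alternatives. The edgeR fits of the main comparison and of the interaction were also run on simulated counts. Positions are those of the Ensembl 115 annotation on the Release 6 assembly, the release the counts were made on, and 17199 genes had one.

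Genes named in the text were *CHES-1-like*, *jumu* and the 4 nearest kept genes on each side; *htl*, *fz* and *polo*; the 10 largest rises and falls among genes past the stringent criteria, without overlap and with at least 5 CPM in the higher group, and the same 10 and 10 among genes with a full name; and, from each list, members past the stringent criteria or the highest and lowest. Other list members could be named. Members, lists and tests were chosen with earlier results of these data known.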

Additional observations from a re-analysis of the deposited data

Results flagged for a closer look

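Among 254 sets of 4 values examined (the log2 CPM of each named gene in each group), 17 held a sample far from the other 3, where about 1 in 20, or 12.7, would by chance. In *CHES-1-like* loss-of-function mesoderm replicate 1 stood apart for *jumu* (log2 CPM 6.555), *NELF-B* (4.461), *Hsp70Ba* (10.08), *sn* (8.869), *pon* (6.427), *Act79B* (4.265), *roX1* (9.557) and *CG14205* (3.132). Replicate 2 stood apart for *Mctp* (3.971), *kek1* (−1.367) and *E(spl)m6-BFM* (2.647), replicate 3 for *grim* (2.263) and replicate 4 for *repo* (1.862). In wild-type mesoderm replicate 3 stood apart for *polo* (7.451) and *CG43373* (−2.799), and replicate 2 for *Him* (5.712) and *Mhc* (5.946). The log2 fold changes with each of these samples left out are among the results described under the processing alternatives.

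For 45 of the 125 named genes the effect of losing *CHES-1-like* differed between jumu-null and jumu-wild-type mesoderm. The difference was more than 1 on the log2 scale, in the interaction test over 16 samples (edgeR, FDR < 0.1). A negative value means a less positive effect in the jumu-null background. Among rises it was −6.725 for *Mctp*, −6.448 for *Tk*, −6.08 for *Aplip1*, −4.683 for *CG15894*, −4.179 for *Trpgamma*, −4.064 for *CG43373*, −3.832 for *AstA-R1*, −3.085 for *Fife*, −2.505 for *CG14853*, −1.37 for *Frq2* and −1.365 for *Cngl*. *CG11697* (2.405) and *CG14205* (4.799) had a larger rise in the jumu-null background, and *CG18754* (−2.941) had none there. In the heat shock list the difference was −2.737 for *Hsp26*, −2.467 for *Hsp23*, −2.003 for *Hsp70Ab*, −2.001 for *Hsp70Aa*, −1.65 for *Hsp27*, −1.229 for *Hsp70Ba* and −1.139 for *Hsp70Bb*. Among falls it was 10.24 for *Cyp4p2*, 9.743 for *CG33337*, 9.28 for *axo*, 8.588 for *CG32547*, 8.04 for *CG7509*, 7.11 for *CG42324*, 6.187 for *CR32658*, 5.74 for *rk*, 4.607 for *kek1*, 3.706 for *CR32657*, 3.277 for *CG14608*, 2.934 for *Syt4*, 2.893 for *Ugt86Da*, 1.617 for *Ac76E* and 1.154 for *sda*. Several of the genes with falls were at or near the floor in *jumu* loss-of-function (0 to 2 counts for *CG33337* and 2 to 6 for *CG32547*), so these fitted differences are no bounds (SE 2.12 for *CG33337*) and that low level enters them. In the other lists it was −4.204 for *Eip93F*, −1.477 for *baz*, −1.301 for *grim*, −1.198 for *osk*, −1.06 for *AGO3*, 1.503 for *Syt1*, 1.126 for *ths*, 1.086 for *brp* and 1.071 for *prc*. Without the cut on size, 17.7% of all kept genes passed the interaction. So did 49.9% of the genes called higher and 36.3% of those called lower in jumu-wild-type mesoderm. Many genes were named for a large change there. The interaction uses those same samples, so the 45 do not measure how common such differences are.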

How the results depend on the processing

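With DESeq2 or RLE factors 123 of 125 named genes kept their direction and their side of the relaxed criteria, and with no expression filter 125 did. The replicate numbers did not pair the samples: deviations from the group means correlated by 0.44, 0.0046, 0.21 and 0.018 for numbers 1 to 4 over 5450 genes, and 1 of 4 samples correlated best with its own number. With the replicate number as a block the fit called 758 higher and 1173 lower genes by the relaxed criteria, and 122 of 125 named genes kept their side. A filter of 1 CPM in 4 samples lowered the calls to 1180 (relaxed) and 312 (stringent), with fewer genes tested. Library totals raised them to 6535 and 2161, those in the jumu-null background to 5644, those against *jumu* loss-of-function to 4571 and the interaction to 9940. Totals without ribosomal RNA genes, chosen after seeing the data, gave 3973 and 1560. With library totals the sign turned for *ct* (−0.25), *NELF-B* (−0.53), *CG12155* (−0.47), *polo* (−0.40), *Hsp83* (−0.022), *crq* (−0.010), *srp* (−0.14), *gcm* (−0.072), *Pxn* (−0.37), *pnr* (−0.081), *twi* (−0.46), *E(spl)m6-BFM* (−0.041), *Mcm10* (−0.0042), *Arf51F* (−0.046), *TpnC73F* (−0.031) and *Ppn* (−0.067). Without ribosomal RNA genes in the totals it turned for *ct* (−0.070), *NELF-B* (−0.35), *CG12155* (−0.29), *polo* (−0.23), *Pxn* (−0.19) and *twi* (−0.28). Totals of protein-coding genes, also chosen after seeing the data, turned *NELF-B* (−0.062) and *CG12155* (−0.0044), and leaving out both shallowest *CHES-1-like* loss-of-function samples turned *NELF-B* (−0.079).

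With each sample left out in turn, calls ran from 1620 to 1868 (relaxed) and from 813 to 939 (stringent), in the jumu-null background from 750 to 1611, against *jumu* loss-of-function from 2544 to 2810, and for the interaction from 1714 to 3821. The highest of these for the jumu-null background and the interaction came without double loss-of-function replicate 2, and the lowest for the jumu-null background, 750, without *jumu* loss-of-function replicate 3. The log2 fold change ran from −0.069 to 0.011 for *Hira*, from −0.042 to 0.11 for *NELF-B* and from −0.074 to 0.014 for *tin*. The following calls were lost, with their log2 fold changes. Without *CHES-1-like* loss-of-function replicate 1 they were *repo* (−0.48), *fz3* (−0.50), *por* (−0.49), *pim* (0.50), *Arf51F* (0.42), *TpnC73F* (0.49), *Mp* (−1.04), *Pfk* (−0.46) and *Gapdh1* (−0.49); without replicate 2 *Hsp83* (0.50), *ths* (−0.47), *Arf51F* (0.48), *TpnC73F* (0.49), *Mmp1* (−0.73) and *Mp* (−1.18); without replicate 3 *lz* (−0.39), *ths* (−0.48), *por* (−0.47), *Mcm10* (0.49), *TpnC73F* (0.48) and *Mmp1* (−0.64); and without replicate 4 *Mmp1* (−0.76) and *nos* (0.41). Without wild-type replicate 1 they were *ths* (−0.48), *scw* (−0.79), *Mmp1* (−0.72) and *Mp* (−1.40), without replicate 2 *fz3* (−0.50), *Arf51F* (0.48), *Mmp1* (−0.73) and *Mp* (−1.25), without replicate 3 *lz* (−0.44), *repo* (−0.47), *por* (−0.46), *Arf51F* (0.49) and *TpnC73F* (0.48), and without replicate 4 *repo* (−0.49), *scw* (−0.82), *Mmp1* (−0.69), *Mp* (−1.36) and *nos* (0.58). Some calls were gained. *E(spl)m6-BFM* passed without *CHES-1-like* loss-of-function replicate 2 (0.567) or wild-type replicate 1 (0.576). *Mhc* passed without *CHES-1-like* loss-of-function replicate 2 (−0.504), and *Ppn* without wild-type replicate 2 (0.503) or 3 (0.512). Depth limits genes under 1 CPM most, since the shallowest sample had 15197022 counts. The cause of these changes was not tested.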

Other observations

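Of 29 kept small nuclear RNA genes, which encode parts of the splicing machinery, 9 were higher and 0 lower by the relaxed criteria, against 6.24% and 9.19% of all genes, and the median log2 fold change was 0.38. Of 230 small nucleolar RNA genes, whose products guide the modification of ribosomal RNA, 22 were higher and 9 lower, with a median of 0.10. Of 119 transfer RNA genes 5 were higher and 7 lower, with a median of −0.26. Genes annotated as ribosomal RNA had a median of 0.75 and took a larger share of the counts in every *CHES-1-like* loss-of-function sample than in any wild-type sample. Their part in the other differences was not tested.

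The summed level of *Su(Ste)* genes did not overlap between genotypes, though *jumu* loss-of-function and wild-type samples nearly touched, at 56.5 and 56.7 CPM. With all 24 samples scaled together it was 11.3 to 12.9 CPM in the group lacking *CHES-1-like*, 19.8 to 27.7 CPM in double loss-of-function, 47.0 to 56.5 CPM in *jumu* loss-of-function, 32.7 to 38.6 CPM in *jumu* overexpression, 78.8 to 84.7 CPM in *CHES-1-like* overexpression and 56.7 to 65.0 CPM in wild-type samples.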
